A study of Mus musculus with 6 samples.

Results

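The Egr (early growth response) transcription factors and their Nab corepressors were examined in cardiac ventricles of miR-499 transgenic mice. The family has 6 genes, Egr1, Egr2, Egr3, Egr4, Nab1 and Nab2, out of 19938 genes measured by a probe set with 1 gene symbol. For each gene the probe set with the highest mean log2 value over all mice was to be used, and each of the 6 genes had only 1 such probe set. Gene expression was compared at postnatal day 17 between 3 TG-17 mice, a single FVB/NCrl line in which the Myh6 promoter drives miR-499 in cardiomyocytes, and 3 wild-type (WT) littermates without the transgene. Neither group was treated, the sex of the mice is not given in the labels, and 1 Affymetrix mouse gene ST array was used per mouse. Values are log2 values made by the authors with RMA, in which a difference of 1 is a change of 2-fold. As a check of the labels, the probe set of miR-499 ranged from 5.34 to 5.68 in WT and from 8.87 to 9.33 in TG-17, a 12.7-fold rise (adjusted p = 0.00772 from limma).

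Egr proteins are zinc finger transcription factors that bind GC-rich sites in DNA. Their genes are immediate early genes, which are switched on within minutes by growth factors, stretch or stress through MAP kinases, serum response factor (SRF) and the ternary complex factors bound beside it, and CREB. Nab1 and Nab2 bind Egr proteins and repress transcription through the NuRD chromatin complex, and Egr proteins can in turn activate Nab genes, which closes a feedback loop. In the heart, Egr1 and Nab1 are known for their part in hypertrophy.

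The mature miR-499 strand that is loaded into the silencing complex is shown first because it is the agent that differs between the groups, with its seed, bases 2 to 8, in capitals (RefSeq, GRCm38.p6, chr2:155622893-155622913, plus strand).
mmu-miR-499-5p: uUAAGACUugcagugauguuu

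Promoter stretches were then read from the RefSeq windows of 250 bases before to 50 bases after each transcript start, in which Egr2, Egr4, Nab1 and Nab2 had entries. They are shown because immediate early genes are controlled through such sites, and the capitals mark matches to the CArG box, the site of SRF, to TGACG, the core of the CREB site, or to GCGNGGGCG, the Egr site. The motifs were searched on both strands, and TGACG is also part of the full CREB site TGACGTCA. Each stretch has 30 bases and is written on the strand of its gene. The first Egr2 stretch is at chr10:67537490-67537519 (plus strand), the second at chr10:67537793-67537822 (plus strand), that of Egr4 at chr6:85513681-85513710 (minus strand) and that of Nab1 at chr1:52500538-52500567 (minus strand).
Egr2, upstream start: ttctCCTTTTTTGGaaagtctcggagaacc
Egr2, downstream start: cagtCCATATATGGgcagcgaCGTCAcggg
Egr4: tttggtcatttaCGTCAcggcgccagggcc
Nab1: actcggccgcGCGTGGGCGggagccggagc

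Across its 5 windows, some of which overlap, Egr2 had 2 CArG boxes, and in the second stretch the box was followed by a TGACG match on the other strand. Egr4 had 2 TGACG matches and no CArG box, Nab1 had 3 Egr sites and 1 TGACG match, and Nab2 matched none of the motifs in its window. No window held the full CREB site. A CArG box was present in the windows of 1.81% of 27025 genes, the TGACG core in 23.0% and the Egr site in 6.27%, so the CArG box was the least common of the motifs shown. A match is a description of the letters only.

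Egr1, Egr2, Egr3 and Egr4 were each lower in the TG-17 ventricles, with every TG-17 mouse below every WT mouse, while both Nab genes overlapped between the groups. The sizes of the Egr differences ran from 2.52-fold for Egr1 and 1.65-fold for Egr2 to 1.19-fold for Egr3 and 1.14-fold for Egr4. Only Egr2 passed as changed in limma at a log odds B above 0, a cut-off that 0.211% of all 35556 probe sets passed downwards and 0.155% upwards (0.366% in all). At an adjusted p under 0.05, which 0.00562% of probe sets passed, none of the 6 genes passed. At a limma p below 0.05 before adjustment, 4 of the 6 genes were lower and none was higher, against 8.5% of all probe sets lower and 6.97% higher (15.5% in either direction). Groups without overlap and with TG-17 lower were found for 12.1% of all probe sets (11.3% with TG-17 higher, 23.3% in all), and for 4 of the 4 Egr genes and neither Nab gene. The median log2 fold change of the 6 genes was -0.22, beside -0.014 over all probe sets.

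**Figure D1:**
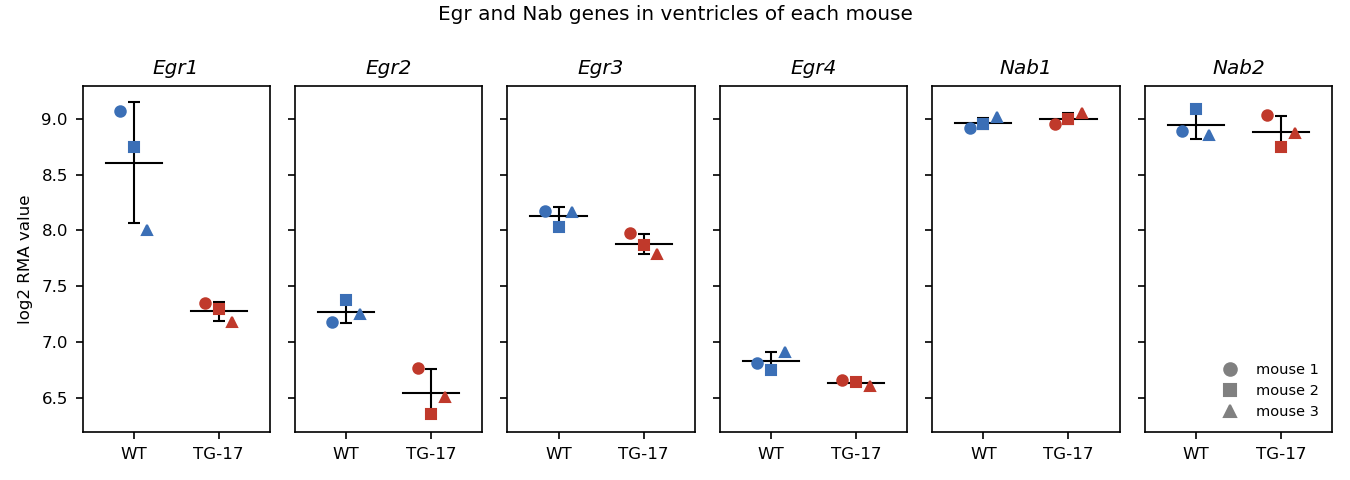
Log2 RMA values (vertical axis) of the 6 genes for 3 WT mice (blue) and 3 TG-17 mice (red), with a point per mouse whose shape gives its number, a horizontal bar at the group mean and whiskers of 1 SD. TG-17 points lie below all WT points for the 4 Egr genes and overlap with WT for Nab1 and Nab2, and levels of different probe sets are not comparable with each other.

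Egr1, the best known inducible factor of the family, was at 9.07, 8.74 and 8.01 in the 3 WT mice and at 7.35, 7.29 and 7.18 in the 3 TG-17 mice. The WT mice were spread over 1.06 log2 units and the TG-17 mice over 0.17, and the lowest WT mouse was still 0.66 above the highest TG-17 mouse. WT averaged 8.61 ± 0.55 and TG-17 averaged 7.27 ± 0.087 (SD, n = 3 each). For Egr1 the log2 fold change came to -1.33 (standard error, SE, of 0.26, 95% interval -1.96 to -0.70), which was the lowest of all 19938 genes. Its B was -0.82 and it did not pass (adjusted p = 0.224 from limma). The spread of Egr1 among WT mice was unusual, since only 8 of the 19938 genes had a larger SD in that group, whereas 41.7% of genes had a larger SD than Egr1 in TG-17. Without WT replicate 3, the WT mouse with the least Egr1, the log2 fold change was -1.63 and B was 2.13, and Egr1 passed. Leaving out any other 1 mouse gave no pass.

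Egr2, which also directs myelination in Schwann cells, was at 7.18, 7.37 and 7.25 in WT and at 6.77, 6.35 and 6.51 in TG-17. Here the WT mice lay close together and the TG-17 mice were the more spread group, the reverse of Egr1. The mean fell from 7.27 ± 0.098 to 6.54 ± 0.21 (SD, n = 3 each). The log2 fold change was -0.72 (SE 0.12, 95% interval -1.01 to -0.44), at rank 7 from the lowest of all genes, and B was 0.051 (adjusted p = 0.205 from limma), so Egr2 lay just past the cut-off. With 1 mouse left out it passed only without TG-17 replicate 1 (B of 0.99), and its log2 fold change was then -0.84 to -0.63.

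Egr3, an inducible factor of muscle spindles, neurons and T cells, was at 8.18, 8.03 and 8.17 in WT and at 7.97, 7.86 and 7.79 in TG-17. The gap between the groups was 0.062, less than the range of 0.14 among the WT mice. The log2 fold change of Egr3 was -0.25 (SE 0.072, 95% interval -0.42 to -0.076), and it did not pass (B of -2.54, adjusted p = 0.251 from limma). Its rank from the lowest fold change was 824 of 19938 genes.

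Egr4, a factor known mainly from neurons and germ cells, was at 6.82, 6.75 and 6.91 in WT and at 6.66, 6.64 and 6.61 in TG-17. The TG-17 mice were within 0.054 of each other and 0.089 below the lowest WT mouse. Its log2 fold change was -0.19 (SE 0.060, 95% interval -0.34 to -0.045), at rank 1761, and it did not pass (B of -2.93, adjusted p = 0.266 from limma).

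Nab1, a corepressor of Egr proteins, was at 8.91, 8.96 and 9.01 in WT and at 8.95, 9.001 and 9.05 in TG-17. The groups were interleaved, and the means of 8.96 ± 0.049 and 9.002 ± 0.052 (SD, n = 3 each) differed by less than 1 SD. The log2 fold change of 0.041 had a 95% interval of -0.094 to 0.18 (adjusted p = 0.747 from limma). Nab2, the other corepressor and itself an inducible gene, was at 8.89, 9.09 and 8.85 in WT and at 9.03, 8.74 and 8.87 in TG-17. Its log2 fold change of -0.062 had a 95% interval of -0.31 to 0.18 (adjusted p = 0.787 from limma), and its sign turned without WT replicate 2 or TG-17 replicate 2. The intervals leave room for small differences of either Nab gene but do not reach the fold change of Egr2 (-0.72). That of Nab2 does include the fold changes of Egr3 (-0.25) and Egr4 (-0.19), so Nab2 is not set apart from these by its interval.

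**Figure D2:**
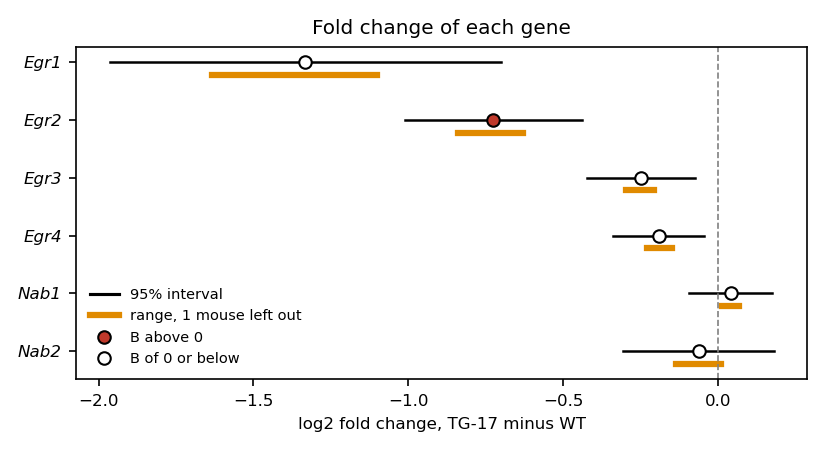
Log2 fold change of each gene (horizontal axis, TG-17 minus WT) with its 95% interval from limma (black line) and its range when 1 mouse is left out (orange line), filled where B is above 0. With the values as deposited, the intervals of the 4 Egr genes lie below 0, and those of Nab1 and Nab2 span 0. That of Egr4 is -0.34 to -0.045 and that of Egr1 is -1.96 to -0.70.

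The mice did not keep the same order for all Egr genes. WT replicate 3, lowest of the WT mice in Egr1, was the middle one in Egr2 and the highest in Egr4. TG-17 replicate 1 was the highest TG-17 mouse for each of the 4 Egr genes, and TG-17 replicate 3 was the lowest for Egr1, Egr3 and Egr4.

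Genes with a pattern like that of Egr1 or Egr2 were listed by the root mean square difference over the 6 arrays, after each gene was centred on its own mean. For Egr1, whose own root mean square deviation was 0.74, the most alike gene was Fos (difference 0.28), an immediate early gene of the AP-1 factors. Fos was at 8.91, 8.60 and 8.40 in WT and at 7.76, 7.80 and 7.63 in TG-17, so WT replicate 1 was the highest and WT replicate 3 the lowest WT mouse, as for Egr1, and Fos fell by 0.91 on the log2 scale at B above 0. This call held in 2 of the 6 fits with 1 mouse left out, those without WT replicate 1 or WT replicate 3. Then followed Olfr1382 (0.39), Usp17ld (0.39), Mir490 (0.42) and Lrrn1 (0.45), none of which passed B above 0. Olfr1382 and Usp17ld belong to multigene families whose near-identical copies can share probes, so their values are uncertain. Egr2 was at rank 7 in likeness to Egr1 (0.46), Egr3 at rank 979 and Egr4 at rank 2967.

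For Egr2, whose own deviation was 0.39, the most alike gene was Ptgfr (difference 0.093), the receptor of prostaglandin F. Ptgfr was at 7.41, 7.68 and 7.40 in WT and at 7.10, 6.78 and 6.88 in TG-17, and like Egr2 it was highest in WT replicate 2 and lowest in TG-17 replicate 2. Its log2 fold change was -0.58 (SE 0.11), and it did not pass (B of -0.88, adjusted p = 0.224 from limma). Cyp2a22 (0.13), Olfr967 (0.14), Flvcr2 (0.14) and Ndrg4 (0.14) followed. Cyp2a22 (3.29 to 4.03) and Olfr967 (4.31 to 5.10) lay below the lower quartile of probe set means (5.53), so their values are uncertain. Flvcr2 and Ndrg4 fell at B above 0. The call held in 6 of 6 fits with 1 mouse left out for Flvcr2 and in 2 of 6, without WT replicate 2 or TG-17 replicate 1, for Ndrg4. Fos was at rank 223 in likeness to Egr2, Egr3 at rank 616 and Egr4 at rank 1680. Egr1 was only at rank 17784, with a difference of 0.46 that was larger than the own deviation of Egr2. Nab2 (rank 3877) and Nab1 (rank 13492), which overlapped between the groups, came before it. The measure is not scaled, so a gene with a larger change than Egr2 counts as unlike it even where the direction is the same. The rank of Egr2 in likeness to Egr1 therefore did not hold in the other direction. Likeness over so few arrays follows mostly the difference between the groups.

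**Figure D3:**
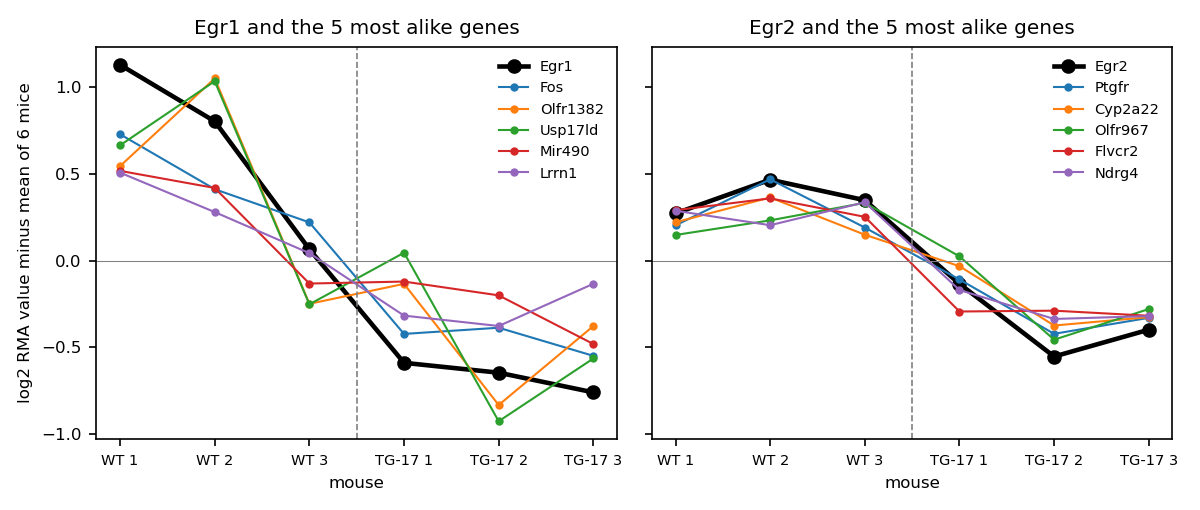
Log2 RMA values minus the mean of the 6 mice (vertical axis) for Egr1 (left) and Egr2 (right), each in black with its 5 most alike genes in colour, by mouse (horizontal axis). Lines only join the points of a gene, since the mice have no order. WT replicate 3 lies lowest of the WT mice for Egr1 and Fos, while Egr2 and Ptgfr are highest in WT replicate 2.

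The regulators upstream of the Egr genes had no member past the test. Of 10 measured SRF partners and CREB family genes, SRF included, none passed B above 0, while at a limma p below 0.05 before adjustment 1 was higher and none lower (median log2 fold change 0.029). That gene was Myocd, an SRF coactivator of heart and smooth muscle, with a log2 fold change of 0.41 (SE 0.095, B of -1.67). Srf itself was 0.10 log2 units higher on average (SE 0.057), and the SRF coactivators Mrtfa and Mrtfb differed by -0.15 (SE 0.069) and -0.11 (SE 0.051). Of 12 measured genes of the MAP kinase route, from receptors and adaptors to kinases, none passed B above 0, and at that p 4 were higher and 0 lower (median 0.069). The 3 with the smallest p were Rps6ka3, a ribosomal S6 kinase, at 0.34 (SE 0.088), the kinase gene Braf at 0.16 (SE 0.047) and the GTPase gene Nras at 0.21 (SE 0.062).

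The partners of the Nab proteins were likewise without a call. Of 12 NuRD subunits none passed B above 0, 1 was higher and none lower at a limma p below 0.05 before adjustment, and the median log2 fold change was 0.036. The histone deacetylase gene Hdac2 was at 0.16 (SE 0.053), the histone-binding subunit Rbbp4 at 0.15 (SE 0.069) and Gatad2b at 0.12 (SE 0.062). Chd4, the subunit that Nab proteins contact, was at 0.028 (SE 0.050), and this sign turned after a second quantile normalization. Of 4 measured factors that bind similar GC-rich sites, Wt1 and Sp factors, none passed B above 0 or a limma p below 0.05 before adjustment. Wt1 had a log2 fold change of 0.073 (SE 0.12), a sign that turned without WT replicate 1 or TG-17 replicate 3, and Sp3 had 0.10 (SE 0.077).

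Among 22 measured genes published as Egr targets, no gene passed B above 0. Their median log2 fold change was 0.029, beside the -0.014 of all probe sets. At a limma p below 0.05 before adjustment 2 were higher and 1 was lower. The angiogenic factor gene Vegfa was at 11.08 ± 0.10 in WT and 11.38 ± 0.050 in TG-17 (SD, n = 3 each), and its difference of 0.30 log2 units (SE 0.069) gave an adjusted p of 0.225 in limma. The hyaluronan receptor gene Cd44 was at 0.27 (SE 0.065), and the growth factor gene Fgf2 was at -0.18 (SE 0.062). The others did not reach that p, and Il6 and Fasl among them were dim, below the lower quartile of probe set means.

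**Figure D4:**
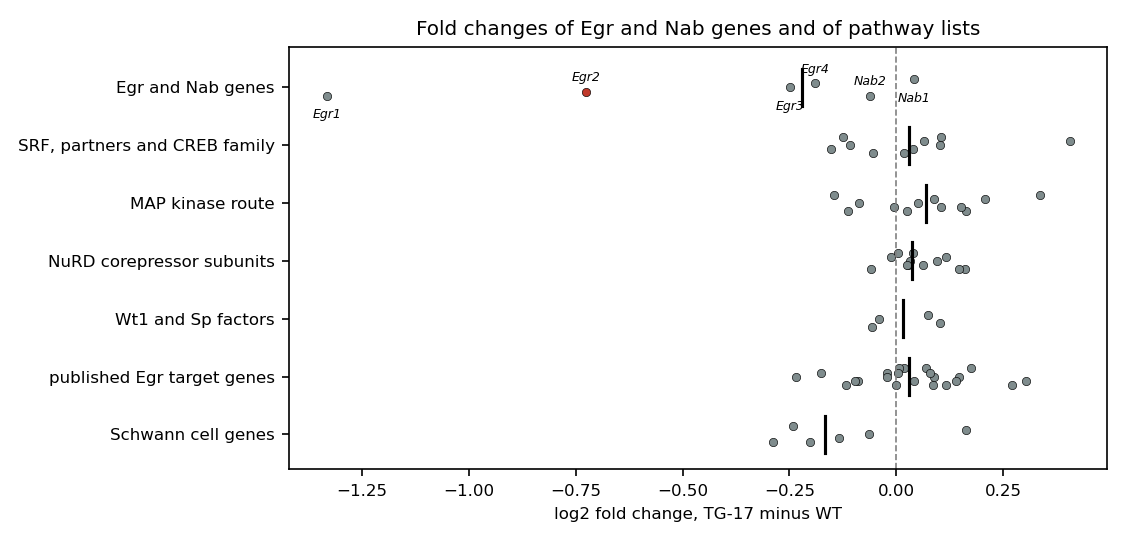
Log2 fold change (horizontal axis, TG-17 minus WT) of the 6 Egr and Nab genes and of 6 gene lists, with a point per gene, a black bar at the median of the list and red for B above 0. Egr1 and Egr2 lie left of every gene of the other lists, whose values run from -0.29 to 0.41, and Egr2 is the only red point.

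Genes whose promoter windows hold a CArG box were also described as a group. Of 254 such genes measured, 3 fell at B above 0, or 1.18%, and 1 rose, the skeletal actin gene Acta1. Of the 15614 measured genes with a window 0.224% fell, and of all 19938 genes 0.13% rose. The 3 that fell were Egr2, the atrial light chain gene Myl7 and Rcn2, a calcium-binding protein of the endoplasmic reticulum. The share of 1.18% thus counts Egr2 itself, and Egr1 and Egr3 had no window. With 1 mouse left out, the call of Rcn2 held in 0 of 6 fits, that of Egr2 in 1 (without TG-17 replicate 1), that of Myl7 in 1 (without WT replicate 2) and that of Acta1 in 6, and with arrays centred on their medians Egr2 and Myl7 did not pass. The median log2 fold change of the 254 genes was -0.016, the same as that of all genes with a window (-0.016). Of 4369 measured genes with the TGACG core in a window, 8 fell (0.183%, Egr2 and Fos among them) and 5 rose, and their median was 0.0043. Of 1456 measured genes with an Egr site in a window, 3 fell (Ndrg4, Rcn2 and Wif1, or 0.206%) and none rose, and their median was 0.0068.

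The genes next to the Egr and Nab genes had no call. Of 13 protein-coding neighbours listed by RefSeq, 12 were measured, and none passed B above 0, with log2 fold changes of -0.13 to 0.26. Etf1, next to Egr1, was the highest of these at 0.26 (SE 0.050, B of -0.75), opposite in sign to Egr1. Stat6 overlaps Nab2 in the annotation, and whether probes of either gene also read the other was not tested.

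Markers of other cell types were measured beside these genes, since in whole ventricle fewer cells of a type and less RNA per cell cannot be told apart. The 9 ventricular cardiomyocyte markers had mean log2 values from 12.96 to 13.01 in WT and from 12.98 to 13.00 in TG-17, and none passed the test. Of 6 atrial markers, 2 fell at B above 0, Myl4 by 0.66 and Myl7 by 0.64 on the log2 scale, and 4 were lower at a limma p below 0.05 before adjustment. Both calls were lost when arrays were centred or when any 1 mouse other than WT replicate 2 was left out. The mean of the atrial list was 8.65 to 8.84 in WT and 8.40 to 8.43 in TG-17. Of 5 smooth muscle markers none passed, 3 were lower at a limma p below 0.05 before adjustment (Myh11, Acta2 and Cnn1), and the mean was 9.37 to 9.56 in WT and 9.21 to 9.33 in TG-17. Of 6 measured Schwann cell genes none passed, 3 were lower at that p, among them Sox10 and the connexin gene Gjb1, and 1, Pmp22, was higher. The mean of the Schwann cell list was 7.05 to 7.16 in WT and 6.89 to 7.03 in TG-17. Its groups did not overlap but came close, with a lowest WT value of 7.046 and a highest TG-17 value of 7.032. S100b was below the lower quartile of probe set means. Of 5 measured T cell markers none passed, Cd3e and Cd8a were lower and Cd4 higher at that p, and the means of 6.01 to 6.05 in WT and 5.92 to 6.03 in TG-17 overlapped. The 7 endothelial, 7 fibroblast and 2 measured erythroid markers had no gene at that p, and of 8 macrophage markers only Lyz2 was higher at it. These list means are of the values as deposited. In those, array medians were also lower in each TG-17 mouse (6.89 to 6.91) than in each WT mouse (6.93 to 6.95). The list means were not recomputed with arrays centred on their medians. Of single probe sets, 12.1% had every TG-17 mouse below every WT mouse. The part of atrial, smooth muscle and Schwann cell RNA in the Egr differences was not tested.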

How the data were processed

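Ventricular RNA of 3 TG-17 and 3 WT mice at postnatal day 17 was hybridised to 1 array per mouse. The authors deposited a log2 value for each probe set, made with RMA (background correction, quantile normalization, summary of probes) per the submitters' processing notes. The sources used here do not give its version. All 35556 probe sets were used as deposited, with no filter. Groups came from the labels, while the paper gave line, strain and promoter. Each array is a different animal, and precision is limited by the number of arrays, which hold no read depth. Pearson's r between arrays, across probe sets, was 0.990 to 0.994.

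Of the probe sets, 21789 had 1 gene symbol in the platform annotation, 1621 had several and 12146 were unnamed. Symbols were updated through Entrez identifiers with the RefSeq table of GRCm38.p6. The 2 groups were fitted over all probe sets in R 4.3.3 with lmFit and eBayes of limma 3.58.1. Calls were made at B above 0 with an assumed share of 0.01, and Benjamini-Hochberg adjusted p values were given beside them. The paper names both cut-offs but no share. It applied them to a smaller set of transcripts, so its numbers of calls and those given here are not on the same set. The fit was tested on simulated data. Centring each array on its median turned the 75 lower and 55 higher probe sets at B above 0 into 40 lower and 96 higher, and shifted the median log2 fold change of all probe sets from -0.014 to 0.037.

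The 6 genes and all lists were chosen with earlier results of these data known. Named genes were the 6 genes, miR-499, the list genes at B above 0 or up to 3 of smallest p, Srf and Wt1, the 5 genes most alike to Egr1 and Egr2, and neighbours, most of which are given as a range. Chd4, Rcn2, Acta1 and Wif1 fall outside this rule and were chosen after their values were seen. Of the listed genes, those without a probe set of 1 symbol were left out. The labels do not say that the mouse numbers pair the mice, and the main fit used no pairing. The deviations of same-numbered mice had r of 0.024, -0.00044 and 0.057, beside -0.057 to 0.034 for mice of different numbers. With so few mice these values cannot show whether same-numbered mice belong together.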

Additional observations from a re-analysis of the deposited data

How the results depend on the processing

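All 17 alternatives gave a lower mean of the 4 Egr genes in TG-17 and a higher mean of Nab1. Centring and a second quantile normalization, the alternatives that alter the values of each mouse, left every TG-17 mouse below every WT mouse for these 4 genes. For Egr4 the log2 fold change shrank from -0.19 (SE 0.060) to -0.140 with centring (SE 0.063, adjusted p = 0.319 from limma). After a second quantile normalization it was -0.137 (SE 0.062, adjusted p = 0.421 from limma). An interval of Egr4 below 0 is therefore shown only for the values as deposited. Without moderation limma gives no B, and calls there were made at an adjusted p under 0.05, at which the deposited values with moderation gave 2 calls among all probe sets and 0 among the 6 genes, so the counts without moderation differ in cut-off as well. Egr1 (log2 fold change -1.33) passed B above 0 when only probe sets with 1 gene symbol, or 1 probe set per gene, were tested and at an assumed share of 0.05, so that 2 of the 6 genes were called lower in each. Egr2 did not pass with arrays centred on their medians (-0.67), after a second quantile normalization (-0.68), without moderation (-0.72, adjusted p = 0.229 from limma) or with the replicate number as a block (-0.72, adjusted p = 0.318 from limma), which left 0 called. Leaving out 1 mouse gave a log2 fold change of -1.63 to -1.10 for Egr1, -0.84 to -0.63 for Egr2, -0.14 to 0.011 for Nab2 and -0.028 to 0.14 for Wt1, and 0 or 1 of the 6 genes was called. The cause was not tested, except that fewer probe sets or mice were used in some. Over all alternatives the adjusted p from limma was 0.0842 to 0.407 for Egr1 and 0.0657 to 0.401 for Egr2. Egr2 was called in 8 of the 17 and Egr1 in 4, while Egr3, Egr4, Nab1 and Nab2 were called in 0. Chd4 had -0.045 after a second quantile normalization.

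Of the 60 pathway genes, 0 were called in limma, and 1 (Vegfa) was higher at a share of 0.05. Of the markers, 2 were lower at B above 0, but 0 with centring or with the replicate block. There were 4 at a share of 0.05 and 0 to 2 with 1 mouse left out. Without moderation 0 were lower at an adjusted p under 0.05. With moderation Myl4 and Myl7 missed that cut-off too (adjusted p = 0.205 each from limma). Lyz2 was the 1 marker called higher with probe sets of 1 symbol, 1 per gene, centring, an intensity trend and a share of 0.05. The calls among all probe sets at B above 0, 75 lower and 55 higher, became 40 and 96 with centring and 123 and 164 with a trend. At a share of 0.05 they became 415 and 299, and with the replicate block 29 and 40. With 1 mouse left out they were 17 to 56 and 12 to 60. Without moderation 0 and 0 were called at an adjusted p under 0.05, a cut-off at which moderation gave 2 in all. The mean over several probe sets was not run, as each of the 6 genes has only 1. Arrays give no depth.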
